A study of Homo sapiens with 9 samples.

Results

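The interleukin-1 (IL1) family genes examined here were 10 genes chosen by name as ligands or receptors of the family: the agonist ligands IL1A, IL1B, IL18, IL33 and IL36G, the receptor antagonist IL1RN, and the receptors IL1R1, IL1R2, IL1RAP and IL1RL1. All 10 were among the 58676 genes of the count table, and 8 had enough reads to be tested among 15975 genes. RNA-seq was carried out on the established cell line OVCA433, which comes from a serous adenocarcinoma of the ovary, after lentiviral transduction. There were 3 libraries with the control vector, 3 with an shRNA hairpin against MPZL3 called sh #1, and 3 with a different hairpin called sh #3, each set carrying the replicate letters A, B and C. MPZL3 encodes a membrane protein with an immunoglobulin domain that is predicted to act in cell adhesion. The study states that the replicates were biological. The study's descriptions of the control for this line differ, naming an empty vector for the sequencing and elsewhere a scrambled hairpin, and which of these the control libraries carried is uncertain.

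IL1α and IL1β, the products of IL1A and IL1B, both bind the receptor IL1R1, which signals only after it recruits the accessory chain IL1RAP. Signaling through MYD88 and the IRAK kinases activates NF-κB and induces chemokines and further cytokines. Several brakes act on the pathway: IL1RN encodes an antagonist that occupies IL1R1 without signaling, and IL1R2 encodes a decoy receptor that binds the ligands but lacks a signaling domain. IL18 and IL33 are related ligands with receptors of their own, and IL1RL1, also called ST2, is the receptor for IL33. IL1A, IL1B and IL1RN lie in a ligand cluster on chromosome 2, where IL36G and IL36RN sit between IL1B and IL1RN, and IL1R2, IL1R1 and IL1RL1 form a receptor cluster on the same chromosome.

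Sequences directly before the start of 4 genes are shown because these genes changed in opposite directions: the agonists IL1A and IL1B on one side, and the antagonist IL1RN and the decoy receptor IL1R2 on the other. Each run is the 250 bases before the start that RefSeq lists nearest to the main GENCODE transcript, read 5′ to 3′ along the gene's own strand from the table on build GRCh38.p14. The positions are chr2:112784494-112784743 on the minus strand for IL1A, chr2:112836780-112837029 on the minus strand for IL1B, chr2:113117721-113117970 on the plus strand for IL1RN and chr2:101998711-101998960 on the plus strand for IL1R2. These starts lie 97, 124, 74 and 34 bases from the main GENCODE start for IL1A, IL1B, IL1RN and IL1R2. The runs of IL1A and IL1B thus lie partly within the gene spans given below, and those of IL1RN and IL1R2 wholly. Capitals mark matches on either strand to 4 motifs. The motif of the transcription factor AP-1 was searched as TGANTCA. For the TATA box, which positions the transcription machinery, the letters searched were TATAAA. For the E-box bound by repressors of epithelial genes, the letters searched were CAGGTG, and the NF-κB consensus was searched in its usual form.
IL1A: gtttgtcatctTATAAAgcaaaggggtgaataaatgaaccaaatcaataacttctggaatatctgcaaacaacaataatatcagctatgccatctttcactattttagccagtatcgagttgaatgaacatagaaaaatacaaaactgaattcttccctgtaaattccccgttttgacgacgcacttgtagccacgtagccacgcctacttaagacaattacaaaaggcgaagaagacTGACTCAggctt
IL1B: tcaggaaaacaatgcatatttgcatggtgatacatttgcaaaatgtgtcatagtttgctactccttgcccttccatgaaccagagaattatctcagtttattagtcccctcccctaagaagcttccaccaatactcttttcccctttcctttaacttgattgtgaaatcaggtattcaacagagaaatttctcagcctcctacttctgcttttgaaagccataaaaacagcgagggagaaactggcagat
IL1RN: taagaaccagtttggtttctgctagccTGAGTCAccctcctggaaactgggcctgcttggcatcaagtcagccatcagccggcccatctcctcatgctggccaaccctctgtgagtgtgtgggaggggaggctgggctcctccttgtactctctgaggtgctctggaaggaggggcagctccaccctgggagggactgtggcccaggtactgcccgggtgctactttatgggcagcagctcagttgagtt
IL1R2: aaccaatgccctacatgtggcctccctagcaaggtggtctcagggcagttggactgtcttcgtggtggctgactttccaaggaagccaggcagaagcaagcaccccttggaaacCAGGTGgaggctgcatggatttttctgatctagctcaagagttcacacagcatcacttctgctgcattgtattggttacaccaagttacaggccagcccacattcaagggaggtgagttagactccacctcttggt
The IL1A run holds an AP-1 match from base 12 to base 6 before the start and a TATAAA match from base 239 to base 234. The IL1RN run holds an AP-1 match from base 223 to base 217 before the start. Whether any of these matches has a part in the changes was not tested. The IL1R2 run holds an E-box match from base 136 to base 131, and the IL1B run holds none of these motifs. Of 35116 promoter runs of this length in the table, 6.57% hold the AP-1 motif, 10.7% TATAAA, 17.5% the E-box and 9.96% the NF-κB consensus, and the motifs do not overlap each other in the 4 runs. Runs for 9 of the 10 genes were found in the table.

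The targeted gene was checked first. MPZL3 was at 19.5 ± 3.42 CPM in control (SD, n = 3; CPM are read counts relative to library size, after scaling by TMM factors), at 1.89 ± 0.0927 CPM with sh #1 and at 1.57 ± 0.514 CPM with sh #3, which were 9.66% and 8.07% of control. Library totals ranged from 16850854 to 23890191 counts. The labelled cell type was checked with 12 ovarian epithelial markers, whose summed level was 11920 to 14870 CPM in control, with WT1 at 0 in all 9 libraries. The sum was 5405 to 6913 CPM with sh #1 and 5377 to 6063 CPM with sh #3. In the pooled comparison described below, 8 of the 11 markers tested were lower and 1, PAX8, was higher. Over all tested genes 7.26% were higher and 7.4% lower, the background for the marker counts in this paragraph. Some markers fell much further than the sum: CDH1 went from a mean of 275.3 CPM in control to 0.112 and 0.148 CPM with sh #1 and sh #3. EPCAM went from 402.6 to 5.48 and 8.93 CPM, whereas PAX8 went from 96.99 to 199.9 and 207.3 CPM. Fibroblast and mesothelial markers, 12 in all, summed to 74.1 to 95.96 CPM in control, 141.6 to 457.4 CPM with sh #1 and 540.0 to 891.8 CPM with sh #3. This list moved both ways, with 5 of the 7 tested markers higher and 1 lower: the collagen gene COL1A1 had a mean of 17.9 CPM in control, 312.2 CPM with sh #1 and 641.2 CPM with sh #3, whereas the mesothelial marker UPK3B went from a mean of 57.2 CPM to 0.541 and 0.746 CPM. Leukocyte markers, 13 in all, summed to at most 2.71 CPM in any library, and LYZ, AIF1, TYROBP, FCGR3A and MS4A1 were at 0 in all 9. Endothelial markers, 6 in all, summed to at most 1.70 CPM in control and 8.56 CPM in knockdown cells. Of the 4 tested, 2 were higher and 0 lower. CDH5 went from a mean of 0.0971 CPM in control to 2.29 CPM with sh #1 and 3.70 CPM with sh #3. KDR went from 0.291 to 2.54 and 1.71 CPM. These marker levels moved with the same groups as the IL1 genes described next, and their part in those results was not tested. In a bulk sample, a change in the share of cells that express a gene and a change in the RNA per cell cannot be told apart.

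MPZL3 knockdown was accompanied by higher IL1A, IL1B and IL1RAP and by lower IL1RN, IL1R2, IL1RL1 and IL18 mRNA. With the 6 knockdown libraries as 1 arm against the 3 control libraries, 3 of the 8 tested members were called higher and 4 lower, at an adjusted p-value under 0.05 and a log2 fold change of 1 or more in size (edgeR quasi-likelihood test, Benjamini-Hochberg adjustment over 15975 genes). Over all tested genes, 7.26% were called higher and 7.4% lower. The same 7 members were called in the same direction with each hairpin alone. Of these, IL1R2 and IL1RL1 passed the filter on low counts only through the control libraries, where they were higher. Their place among the members called lower is therefore a description. Without the filter, both were also called lower in the pooled comparison, with log2 fold changes of -5.00 and -2.85. The backgrounds were 7.76% higher and 8.55% lower with sh #1, and 7.46% higher and 7.83% lower with sh #3. The median log2 fold change of the 8 members was -0.70 in the pooled comparison, beside a median near 0 over all tested genes. Both hairpins were compared with the same 3 control libraries, so their results are not independent of each other. The members were chosen with earlier results of these data known, so their counts beside the backgrounds are a description and not a test.

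**Figure D1:**
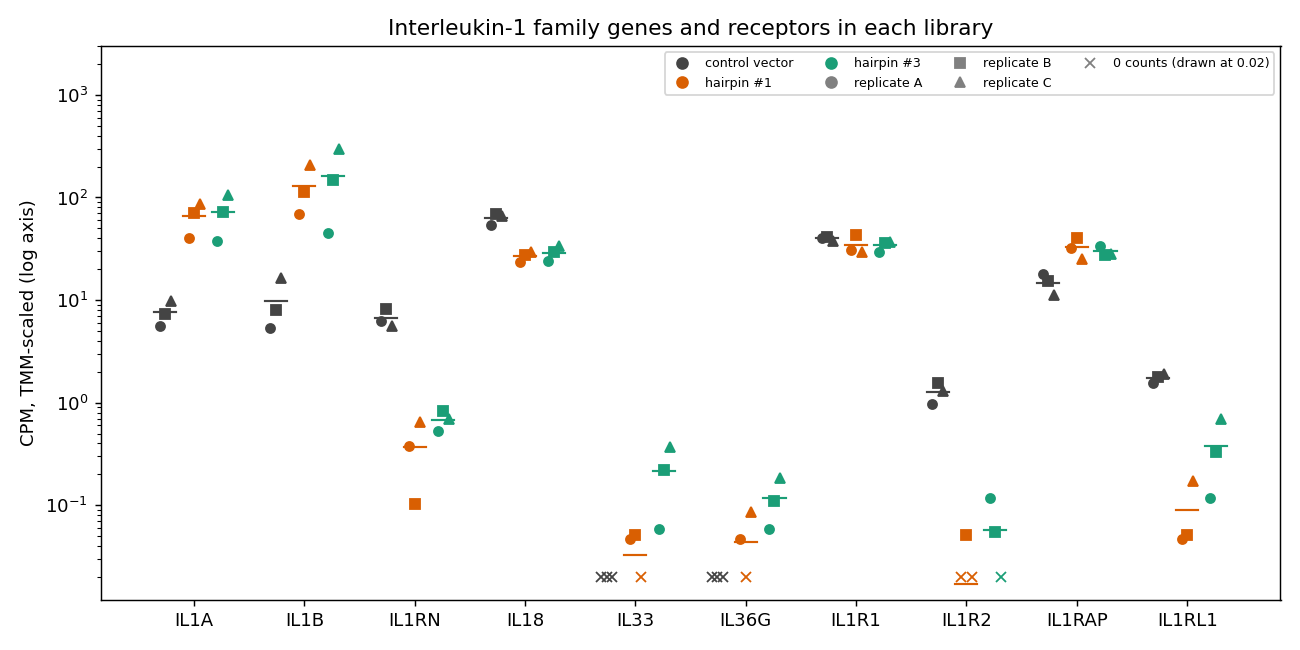
Level of each of the 10 genes in each of the 9 libraries, in CPM on a log axis. Color marks the group, point shape the replicate letter, short lines the group means and crosses libraries with 0 counts, which are drawn at 0.02. IL1A and IL1B lie far above control in all 6 knockdown libraries, whereas IL1RN, IL1R2, IL1RL1 and IL18 lie below it.

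IL1A (ENSG00000115008, chr2:112773915-112784590 on hg38, minus strand) encodes IL1α, which is active as made and is also released by damaged cells. It was at 5.57, 7.27 and 9.89 CPM in control libraries A, B and C, at 39.95, 71.0 and 86.8 CPM with sh #1 and at 37.4, 72.5 and 106.5 CPM with sh #3. The lowest knockdown library thus lay above the highest control library. The log2 fold change was 3.12 (SE 0.373) with sh #1 and 3.25 (SE 0.375) with sh #3, with edgeR adjusted p-values of 1.96e-05 and 1.57e-05. IL1B (ENSG00000125538, chr2:112829751-112836903, minus strand) encodes IL1β, which is made as a precursor and activated by caspase-1. It was at 5.38, 7.96 and 16.2 CPM in control libraries A, B and C, at 68.97, 112.9 and 207.4 CPM with sh #1 and at 44.8, 148.1 and 295.2 CPM with sh #3. Again no knockdown library reached down to the control range, although the spread among knockdown libraries was wide. The log2 fold change of IL1B was 3.72 (SE 0.622) with sh #1 and 4.04 (SE 0.629) with sh #3, and the latter was 3.29 without sh #3 library C.

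IL18 (ENSG00000150782, chr11:112143251-112164117, minus strand), a ligand that epithelial cells commonly make without stimulation, moved in the other direction. It was at 53.8, 68.4 and 66.5 CPM in control libraries A, B and C, at 23.7, 27.4 and 29.1 CPM with sh #1 and at 24.01, 29.2 and 33.3 CPM with sh #3. Neither knockdown group overlapped control, and the knockdown means were 42.6% and 45.9% of control. The log2 fold change was -1.23 (SE 0.138) with sh #1 and -1.12 (SE 0.138) with sh #3. IL33, an alarmin of epithelial and endothelial cells, had no read in control, 1, 1 and 0 reads with sh #1, and 1, 4 and 8 reads with sh #3. IL33 with sh #3 was at least 1.48-fold higher than a level of 3 counts in each control library, but this bound rests on sh #3 library C, without which the ratio was 0.953. IL36G, a ligand of barrier epithelia, had no read in control and 0 to 4 reads in the knockdown libraries, so no difference was detectable at this depth. A count of 0 in control allows up to 0.149 CPM in a library. Without the filter on low counts, IL33 was called higher with sh #3 (adjusted p = 0.0233, edgeR) and IL36G was not (adjusted p = 0.115).

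IL1RN (ENSG00000136689, chr2:113107214-113134016, plus strand), the gene for the antagonist, fell with both hairpins. It was at 6.20, 8.16 and 5.59 CPM in control libraries A, B and C, at 0.374, 0.102 and 0.643 CPM with sh #1 and at 0.530, 0.823 and 0.690 CPM with sh #3. All 6 knockdown libraries lay below the lowest control library, with 2 to 15 reads each against 117 to 164 reads in control. The log2 fold change was -4.09 (SE 0.377) with sh #1 and -3.27 (SE 0.353) with sh #3, with edgeR adjusted p-values of 1.76e-06 and 8.67e-06. Summed over libraries, the level was 17.1-fold lower with sh #1 (95% counting interval 11.4 to 26.7) and 9.68-fold lower with sh #3 (6.96 to 13.8). Without sh #1 library C the log2 fold change with sh #1 was -4.74.

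Of the signaling receptor pair, the accessory chain IL1RAP was called higher and the ligand-binding chain IL1R1 was not called. IL1R1 (ENSG00000115594, chr2:102064544-102179874, plus strand) was at 39.95, 41.6 and 37.9 CPM in control libraries A, B and C, at 30.5, 42.8 and 29.1 CPM with sh #1 and at 29.3, 36.3 and 36.96 CPM with sh #3. IL1R1 overlapped between control and sh #1 but not between control and sh #3, and its pooled log2 fold change of -0.22 (SE 0.128) did not pass the test (adjusted p = 0.216, edgeR). IL1RAP (ENSG00000196083, chr3:190514051-190659750, plus strand), the chain that IL1R1 needs for signaling, was at 18.0, 15.3 and 11.1 CPM in control, at 32.4, 40.1 and 25.3 CPM with sh #1 and at 33.8, 27.5 and 28.3 CPM with sh #3. All 6 knockdown libraries lay above control, by about the size of the fold threshold: the log2 fold change was 1.14 (SE 0.189) with sh #1 and 1.01 (SE 0.190) with sh #3. The call of IL1RAP was lost at the fold threshold, with an adjusted p-value of at most 0.00468, when 1 library was left out. With sh #1 the log2 fold change was 0.96 without control library C and 0.96 without sh #1 library B. With sh #3 it was 0.84 without control library C and 0.91 without sh #3 library A. The pooled value of 1.08 (SE 0.179) became 0.90 without control library C and 0.99 without sh #1 library B.

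Both receptors that do not transmit an IL1 signal, IL1R2 and IL1RL1, fell with both hairpins. IL1R2 (ENSG00000115590, chr2:101991844-102028544, plus strand), the decoy receptor, had 20, 31 and 27 reads in control libraries A, B and C, 0, 1 and 0 reads with sh #1 and 2, 1 and 0 reads with sh #3. Both knockdown groups were at the floor of 3 counts or fewer per library, so IL1R2 was at least 9.02-fold lower with sh #1 and at least 7.93-fold lower with sh #3, with edgeR adjusted p-values of 4.47e-05 and 0.000156. IL1RL1 (ENSG00000115602, chr2:102311502-102352037, plus strand), the IL33 receptor, was at 1.55, 1.79 and 1.91 CPM in control, at 0.0467, 0.0509 and 0.172 CPM with sh #1 and at 0.118, 0.329 and 0.690 CPM with sh #3. Neither knockdown group overlapped control, the 2 knockdown groups overlapped each other, and the sh #3 libraries were the more scattered. Summed over libraries, IL1RL1 was 18.8-fold lower with sh #1 (108 against 6 reads, 95% counting interval 8.36 to 52.3) and 4.34-fold lower with sh #3 (108 against 23 reads, interval 2.75 to 7.13). The fitted log2 fold change was -4.15 (SE 0.582) with sh #1, or -5.00 without sh #1 library C. It was -2.13 (SE 0.469) with sh #3, or -2.92 without sh #3 library C. IL1RL1 overlaps IL18R1 on the same strand, so reads in the shared stretch could not be assigned to 1 of them with certainty. IL18R1 itself, a chain of the IL18 receptor, did not pass the test (pooled log2 fold change -0.42, SE 0.219).

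**Figure D2:**
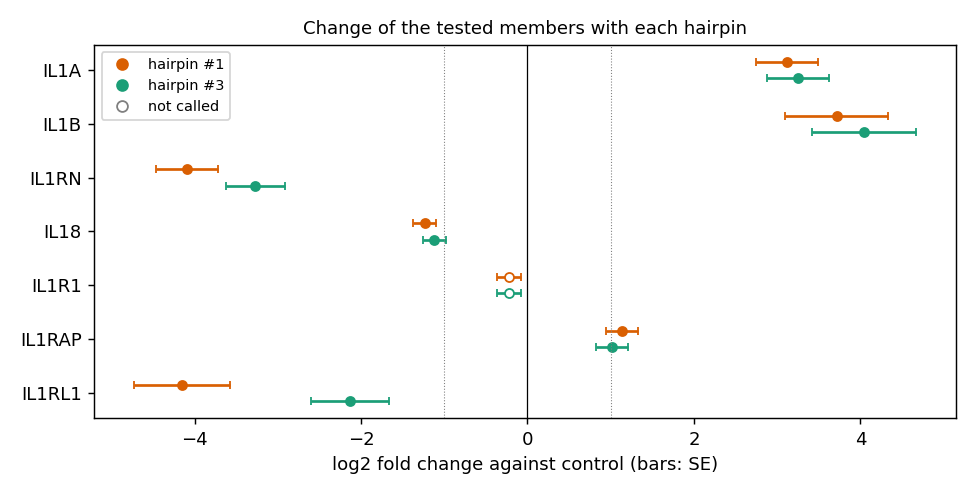
Log2 fold change against control for the 7 tested members that were above the floor, with sh #1 and sh #3 from the 3-group fit. Bars are SE, filled points were called and dotted lines mark the fold threshold of 1. IL1A and IL1B lie above 3 with both hairpins and IL1R1 lies near 0.

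The hairpins were also compared directly. No member was called different between sh #3 and sh #1 by edgeR, with 1 member, IL1RL1, at an unadjusted p-value under 0.05, and the Wald test of DESeq2 likewise called none and had IL1RL1 alone at that level. Over all tested genes, 3.93% were called in this comparison. The difference for IL1RL1 was 2.02 on the log2 scale (SE 0.707, adjusted p = 0.0864, edgeR), with the higher level in sh #3. It was called without sh #3 library A (2.41, adjusted p = 0.0309), and its adjusted p-value ran from 0.0309 to 0.417 over the alternatives. For IL1A the difference was 0.13 (SE 0.328), for IL1B 0.33 (SE 0.537) and for IL1RN 0.82 (SE 0.472), none of which exceeded 2 SE.

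Levels were then set side by side per kb of gene length, the scale on which genes can be compared. In control the ligand IL18 was highest at 23.9 CPM per kb, followed by IL1R1 at 5.62, IL1A at 3.57, IL1B at 3.19, IL1RN at 2.04, IL1RAP at 1.28, IL1R2 at 0.412 and IL1RL1 at 0.305 CPM per kb. Library ranges of neighbors in this order overlapped for IL1A and IL1B, for IL1B and IL1RN, and for IL1R2 and IL1RL1. With sh #1 the order began with IL1B at 41.9, IL1A at 31.0, IL18 at 10.2, IL1R1 at 4.82 and IL1RAP at 2.82 CPM per kb. With sh #3 it began with IL1B at 52.5, IL1A at 33.96, IL18 at 10.97, IL1R1 at 4.83 and IL1RAP at 2.58 CPM per kb. IL1A and IL1B overlapped in both knockdown groups. The ligand at the top therefore was IL18 in control libraries and IL1B by the group mean in both knockdown groups, with IL1A above IL1B in sh #3 library A.

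The agonists and the antagonist are known to compete for IL1R1, so their mRNA ratio was computed per library. Summed IL1A and IL1B per kb was 2.29, 2.39 and 5.77 times the IL1RN level per kb in control libraries A, B and C. It was 358, 2237 and 546 times with sh #1, and 197, 324 and 686 times with sh #3. The lowest knockdown ratio was far above the highest control ratio. The value for sh #1 library B rests on 2 IL1RN reads, and its 95% counting interval runs from 619 to 18500. The ratio of IL1RAP to IL1R1 per kb was 0.179 to 0.276 in control, 0.533 to 0.651 with sh #1 and 0.464 to 0.706 with sh #3, again without overlap between control and knockdown libraries. These are ratios of mRNA, and no protein was measured here.

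IL1A and IL1B also differed by replicate letter within every group. The replicate A library was the lowest and the replicate C library the highest of the 3 for both genes in control, with sh #1 and with sh #3. Relative to A, IL1A was higher by 0.79 in B and by 1.22 in C on the log2 scale (adjusted p = 8.9e-05), and IL1B by 1.06 in B and by 2.02 in C (adjusted p = 8.8e-05), in an edgeR fit with group and letter terms. IL18 passed the same test with smaller differences of 0.28 and 0.36 (adjusted p = 0.0183). Thus 3 of 8 tested members were called by letter, beside 15.4% of all tested genes, and IL1RN (adjusted p = 0.860), IL1R1 (0.159), IL1R2 (0.780), IL1RAP (0.0671) and IL1RL1 (0.363) were not. The labels do not say what the letters stand for.

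**Figure D3:**
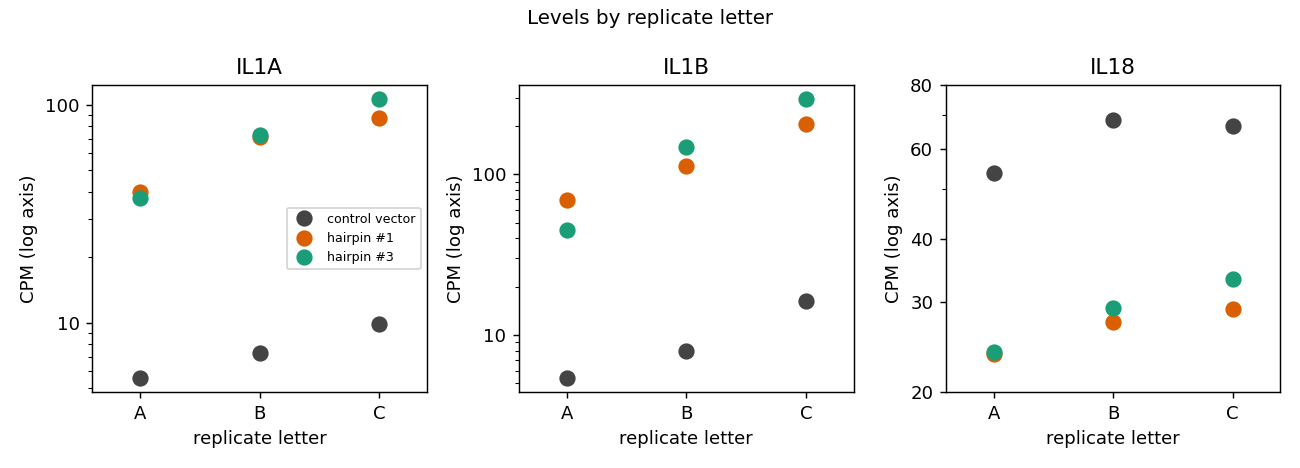
CPM on log axes for IL1A, IL1B and IL18 by replicate letter, 1 point per library and 1 color per group. For IL1A and IL1B the A library is the lowest and the C library the highest in each group, and at each letter the knockdown points lie above the control point.

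Within each letter, the knockdown library was still set apart from the control library of that letter. The letters were not taken as a pairing of all 3 groups, for reasons given at the end, so these folds are a description. IL1A was 7.17-, 9.77- and 8.78-fold higher with sh #1 at letters A, B and C, and 6.71-, 9.98- and 10.8-fold higher with sh #3. IL1B was 12.8-, 14.2- and 12.8-fold higher with sh #1 and 8.33-, 18.6- and 18.2-fold higher with sh #3. The smallest fold for both genes was that of sh #3 at letter A.

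The genes with the most similar pattern were looked up among 13756 tested genes whose mean was 1 CPM or more, as a description. Over the 9 libraries, the log2 CPM of IL1A were closest to COL16A1 (Pearson r = 0.997), FAM43A (0.994) and TMEM44 (0.993), and those of IL1B to POLM (0.994), ADAMTS2 (0.991) and TMEM44 (0.990). These 9 points fall into a control cluster and a knockdown cluster, which all of these genes separate. Over deviations from the group means, which hold the differences by letter, IL1A was closest to OSCP1 (0.994), ABCD4 (0.994) and DHRSX (0.993), and IL1B to ALDH1A3 (0.987), RPL13 (0.985) and LIMD2 (0.985). ALDH1A3, an aldehyde dehydrogenase of retinoic acid synthesis, differed by letter as IL1B did, yet fell from a mean of 369.7 CPM in control to 64.3 CPM with sh #1 and 51.9 CPM with sh #3.

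The remaining IL1 family ligands, receptors and binding proteins comprised 12 genes, of which 5 could be tested. In the pooled comparison, where 7.26% of all tested genes were called higher and 7.4% lower, 2 of these 5 were called lower. None was called higher by edgeR or DESeq2, with 1 positive fold change at an unadjusted p-value under 0.05. SIGIRR, an inhibitory receptor of the family, was at 29.5, 34.5 and 30.6 CPM in control, at 10.3, 13.1 and 16.0 CPM with sh #1 and at 8.24, 12.7 and 12.3 CPM with sh #3, a pooled log2 fold change of -1.38 (SE 0.166). IL36RN, the antagonist of the IL36 receptor, was at 2.34 to 2.42 CPM in control and had no read in any of the 6 knockdown libraries, so it was at least 15.9-fold lower. IL36RN was below the mean level set for naming genes and was named after its values were seen. It passed the filter on low counts only through the control libraries. IL18BP, which binds and neutralizes IL18, did not pass the test (log2 fold change 0.34, SE 0.138), and IL1RL2, the IL36 receptor, had no read in any library.

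Position on chromosome 2 was described next. Within 1 Mb of IL1A, 26 other tested genes had a median pooled log2 fold change of 0.28, with 5 called higher and 1, IL36RN, called lower. The background for this and the following counts was 7.26% called higher and 7.4% called lower over all tested genes. Between IL1B and IL1RN, IL36RN was the sole non-member that was tested, and PSD4, the first tested gene beyond IL1RN, had a log2 fold change of -0.11. Within 1 Mb of IL1R2, 14 other tested genes had a median of -0.35, with 1 called higher and 4 lower. Among them, LINC01127, which ends 4.68 kb before IL1R2, had a log2 fold change of -4.44, and the sodium-proton exchanger genes SLC9A4 and SLC9A2 beyond IL1RL1 had -5.87 and -8.51. These changes rest on few reads in knockdown libraries. Means over all 9 libraries were 1.26 CPM for LINC01127, 3.32 CPM for SLC9A4 and 9.78 CPM for SLC9A2. IL1R1, between IL1R2 and IL1RL1, was not called. The 8 tested neighbors of IL1RL1 had a median of -2.30, with 4 called lower, the same genes as around IL1R2: CREG2, LINC01127, SLC9A4 and SLC9A2. IL18 on chromosome 11 had 14 tested neighbors with a median of -0.24 and IL1RAP on chromosome 3 had 4 with a median of -0.14.

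**Figure D4:**
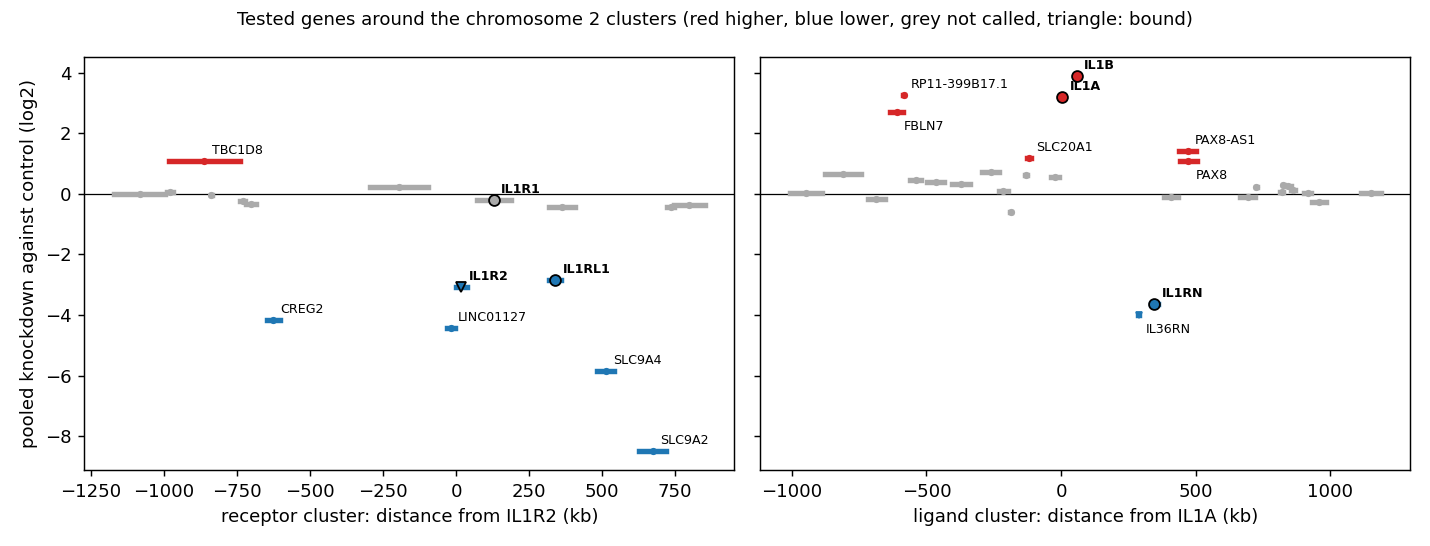
Pooled log2 fold change of tested genes around the receptor cluster, left, and the ligand cluster, right, against distance in kb along the chromosome. Bars span the genes, outlined points are members of the family list, red and blue mark genes called higher and lower, and triangles mark a bound for genes at the floor in knockdown cells. IL1A and IL1B lie above 3 and IL1RN and IL36RN below -3 within 1 cluster.

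Genes that process, activate or release the ligands were described from a list of 16, of which 12 were tested. In the pooled comparison 1 was called higher and 1 lower, which is near the background of 7.26% and 7.4%, and the median log2 fold change was 0.27. At an unadjusted p-value under 0.05, 5 of the 12 had a positive and 5 a negative fold change. NLRP1, an inflammasome sensor, was at 16.95, 23.2 and 28.7 CPM in control, at 45.3, 63.0 and 67.5 CPM with sh #1 and at 46.4, 66.2 and 78.8 CPM with sh #3 (log2 fold change 1.42, SE 0.209). CAPN1, a calpain protease of the kind that cleaves the IL1α precursor, went from 855.3 to 963.3 CPM in control to 270.0 to 341.7 CPM in knockdown libraries (log2 fold change -1.56, SE 0.0882). CASP1, the protease that activates IL1β and IL18, had a pooled log2 fold change of 0.85 (SE 0.206), below the fold threshold, and was called with sh #1 (1.01), though at 0.99 not in the fit with a replicate block. The inflammasome sensor NLRP3 was below all control libraries in 6 of 6 knockdown libraries (-0.64, SE 0.168, adjusted p = 0.0117), and so was the pore-forming GSDMD (-0.37, SE 0.0916, adjusted p = 0.00856), neither past the fold threshold.

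The signal transduction list held 20 genes, of which 18 were tested. In the pooled comparison 0 were called higher and 1 lower by edgeR, near the background of 7.26% and 7.4%. The median log2 fold change was 0.02. At an unadjusted p-value under 0.05, 4 of the 18 had a positive and 4 a negative fold change. PELI1, an E3 ligase of the IRAK pathway, was at 35.3 to 38.6 CPM in control and 13.3 to 20.8 CPM in knockdown libraries (log2 fold change -1.03, SE 0.147). Its call was lost at the fold threshold without control library A (-0.998), sh #1 library A (-0.96) or sh #1 library C (-0.98). IRAK2 had a log2 fold change of 1.22 (SE 0.451, adjusted p = 0.0578) in the pooled comparison, 1.17 with the replicate letter as a block (adjusted p = 0.0212), and was called with sh #3 alone (1.58, SE 0.411, adjusted p = 0.00875). The DESeq2 Wald test called 1 gene of the list higher. The adaptor MYD88 (0.05, SE 0.107) and the NF-κB subunit RELA (-0.13, SE 0.102) did not pass the test.

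Of 30 genes commonly induced by IL1, 22 were tested, and 11 were called higher and 2 lower in the pooled comparison, beside backgrounds of 7.26% and 7.4%, the lower count being near its background. They had a median log2 fold change of 1.56 beside a median near 0 over all tested genes. The genes called higher were the neutrophil chemokines CXCL1, CXCL2, CXCL3 and CXCL8, the cytokines IL6, IL11 and CSF3, the mitochondrial superoxide dismutase SOD2, the NF-κB cofactor NFKBIZ, the complement component C3 and the hyaluronan-binding protein gene TNFAIP6. The counts hold 2 entries named SOD2, and all SOD2 values given are those of ENSG00000112096. CXCL1 was at 12.6, 62.1 and 66.9 CPM in control libraries A, B and C, at 196.5, 718.6 and 600.1 CPM with sh #1 and at 131.7, 933.2 and 883.2 CPM with sh #3 (log2 fold change 3.61, SE 0.742). CXCL3 had a log2 fold change of 3.69 (SE 0.579). TNFAIP6 had no read in control and 0.647 to 4.06 CPM in knockdown libraries, at least 11.97-fold higher. TNFAIP6 and CSF3, which also had no read in control, passed the filter on low counts only through knockdown libraries. Taken by hairpin, IL6 was called with sh #1 (log2 fold change 3.56, SE 0.644) but not with sh #3 (1.53, SE 0.675). In the fit with a replicate block IL6 was also called with sh #3 (1.43). IL11 was called with sh #3 (1.96, SE 0.191) but was short of the fold threshold with sh #1 (0.71, SE 0.194). The pooled call of IL6 was lost when any 1 of the control libraries was left out (adjusted p = 0.0886, 0.0881 and 0.0641 without A, B and C). That of IL11 was lost without control library B (0.0578) or C (0.0512).

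Not all listed response genes rose. LCN2, an iron-binding protein of epithelial defense, was at 78.5, 304.8 and 282.5 CPM in control and below 1 CPM in all 6 knockdown libraries (log2 fold change -8.55, SE 0.473). SAA2, an acute-phase gene, fell by 2.33 on the log2 scale (SE 0.531). The NF-κB feedback genes TNFAIP3 (-0.63, SE 0.195, edgeR adjusted p = 0.0275) and BIRC3 (-0.89, SE 0.296, adjusted p = 0.0368) were lower but short of the fold threshold. With sh #3 alone BIRC3 was called lower (-1.14, adjusted p = 0.0124, edgeR). The cytokine gene LIF (-0.34, SE 0.213) did not pass the test. The list is one of IL1 targets by background knowledge, and many of its genes are also induced by other stimuli. It was chosen with earlier results of these data known, so its counts beside the background are a description and not a test.

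**Figure D5:**
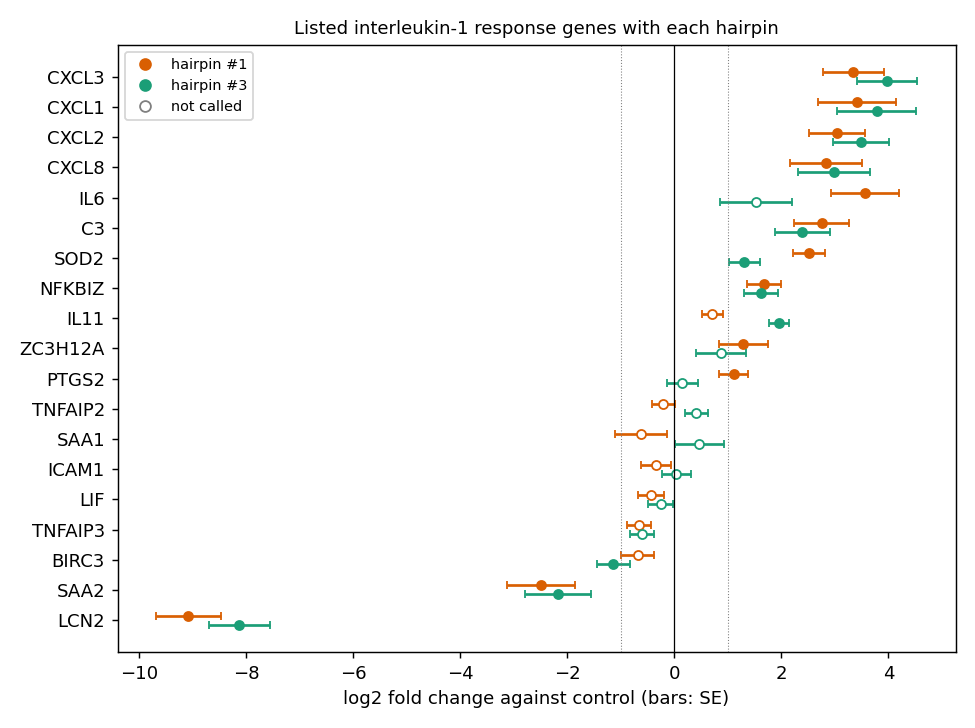
Log2 fold change against control for 19 tested IL1 response genes that were above the floor in every group, with sh #1 and sh #3. Bars are SE, filled points were called and dotted lines mark the fold threshold of 1. The CXCL chemokines lie near 3 to 4 with both hairpins and LCN2 near -8 to -9.

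The response genes also differed by letter. Of the 22 tested, 18 were called by letter, beside the background of 15.4% of all tested genes. In 18 the replicate A library was the lowest or tied for lowest in every group, which held for 16% of all tested genes. Ties are included in both figures: CSF3 and TNFAIP6 had 0 reads in every control library. The C library was the highest in every group for 0 of the 22 response genes, beside 9.55% of all tested genes. It was so for 3 of the 8 tested members, IL1A, IL1B and IL1RL1. The count asks for the same order in all 3 groups. For NFKBIZ, IL6 and C3 the C library was the highest in control and with sh #3, and B was the highest with sh #1. For NFKBIZ with sh #1 these were 84.3 CPM in B and 59.7 CPM in C. For CXCL1, B was above C with both hairpins and C above B in control.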

How the data were processed

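RNA-seq of OVCA433 cells gave 9 libraries, made from poly(A)-selected RNA without strand information per the labels. The authors deposited raw read counts per gene, with no normalization. Their processing notes name HISAT2 2.0.5, featureCounts 1.5.0-p3 and hg38. How reads in overlapping genes were counted is not given in the sources used here. Samples were grouped by their labels. Genes were filtered with filterByExpr of edgeR 4.0.16 (minimum count 10, minimum total count 15), scaled with TMM factors and tested with the quasi-likelihood test (R 4.3.3), and p-values were adjusted over 15975 genes by the Benjamini-Hochberg method. Following the study, both hairpins formed 1 arm, and each hairpin was also compared in a 3-group model. SE were derived from the fold change and F. CPM are TMM-scaled. A gene at 3 counts or fewer in each library of a group was at the floor and is given as a bound. Intervals are exact binomial or Poisson and, like bounds, cover counting error only. The fits recovered known changes in simulated counts. GSDME was matched by gene ID, being listed as DFNA5. The 10 members and the gene lists were chosen with earlier results of these data known.

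In each list, up to 4 genes were named, those with the largest absolute pooled change among called genes whose mean was 1 CPM or more, and other genes given with values were named after their values were seen. The genes most similar to IL1A and IL1B were the 3 with the highest correlation. Alternatives were no filter, DESeq2 size factors, library totals, the DESeq2 1.42.0 Wald test, a replicate block, a 3-group model, only the groups compared and each library left out in turn.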

Additional observations from a re-analysis of the deposited data

Results flagged for a closer look

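For 5 listed genes the effect differed between the hairpins in the direct edgeR comparison of sh #3 with sh #1, at an adjusted p-value under 0.05 and a log2 difference of 1 or more in size. IL1RAPL1, a relative of IL1RAP known from neurons, was at the floor with sh #1 and at least 12.9-fold higher in sh #3 (adjusted p = 7.7e-05), with 1.26 to 1.72 CPM in control, 0.0509 to 0.140 CPM with sh #1 and 1.35 to 2.16 CPM with sh #3. IL6 differed by -2.04 (adjusted p = 0.0352), IL11 by 1.25 (adjusted p = 0.000647) and SOD2 by -1.21 (adjusted p = 0.0140) on the log2 scale. MMP1, a collagenase, was at the floor with sh #1 and at least 13.7-fold higher in sh #3 (adjusted p = 0.00440), or at least 5.64-fold without sh #3 library C. The IL6 call was lost in 7 alternatives, among them the DESeq2 Wald test (adjusted p = 0.0694) and the fit without sh #1 library B (-1.41, adjusted p = 0.186), and the SOD2 difference was -0.65 without sh #1 library B. MMP1 had at most 0.287 CPM in control and sh #1 libraries and 0.706 to 4.19 CPM with sh #3.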

How the results depend on the processing

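Of 510 alternative values for the 8 tested members, 492 kept their direction and their side of the thresholds, 6 lost the call, all of them IL1RAP with 1 library left out, and 3 gained one, all of them IL1RL1 between the hairpins. That IL1RL1 call raised the members called higher in sh #3 than in sh #1 from 0 to 1 without the filter and with the replicate block, and to a range of 0 to 1 with single libraries left out. In that comparison, where no member was called, 9 values turned direction, all with 1 library left out: IL1A was -0.13 without sh #1 A and -0.26 without sh #3 C, IL1B -0.42 and IL18 -0.0027 without sh #3 C, IL1RAP 0.0536 without sh #1 B, and IL1R1 -0.07 and -0.10 without sh #1 A and C and -0.04 and -0.05 without sh #3 B and C. With single libraries left out, the difference was -0.26 to 0.44 for IL1A, -0.42 to 0.84 for IL1B, -0.0027 to 0.23 for IL18, -0.10 to 0.20 for IL1R1 and -0.28 to 0.0536 for IL1RAP. The cause was not tested. Genes of the signal transduction list called higher went from 0 to 1 without the filter, with the DESeq2 Wald test, in the 3-group model, with the replicate block and without the 3 replicate A libraries (chosen after seeing the data), and were 0 to 1 with single libraries left out. Those called lower were 0 without the 3 replicate A libraries and 0 to 1 with single libraries left out. Of 368 alternative values for 20 listed genes, 17 lost the call and 0 turned direction. Without the filter or with library totals, 4 members were called by letter in place of 3, IL1RAP being added. The letters were checked as pairs by the correlation of deviations from group means between libraries of the same letter. It was 0.136 to 0.401 between control and sh #3, all over 0.1, but reached down to 0.0515 between control and sh #1 and to 0.0786 between the hairpins, so the letters were not taken as a pairing of all 3 groups, although a library correlated best with its own letter in 15 of 18 cases. With the replicate block, IRAK2 (adjusted p = 0.0212) and ZC3H12A (0.00334) were also called in the pooled comparison, and no other call among the members changed. Depth limits IL33, IL36G and IL1R2, which had at most 8 reads in any knockdown library.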
